A study of Mus musculus with 24 samples.

Results

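The response of the left ventricle to angiotensin II (ANG II) was described in 6 of 24 samples, samples 4 to 6 of the hypertensive-LVH group and samples 4 to 6 of the control group, and was set beside the response in the other 18. All mice were male wild-type C57BL/6J. Osmotic mini-pumps placed under the skin gave the hypertensive-LVH group 1500 ng/kg/min of ANG II during 7 days and the control group saline for the same time. The age of the mice is not given in the sources used here. Hearts of both groups had been flushed with saline. RNA of left ventricular tissue was selected with oligo(dT) and sequenced, so that each value mixes cardiomyocytes, fibroblasts, vessels and immune cells, and fewer cells of a type and less RNA per cell cannot be told apart. The study used 16 samples per group, and 12 per group were analysed here.

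Samples 4 to 6 were set apart on measured values. Exact ties between values divided the samples of both groups into 4 sets by number (1 to 3, 4 to 6, 7 to 9 and 10 to 12), and the set 4 to 6 was picked because ANG II and control lay far apart in it. The labels name no such sets and give no batch, so that what the sets were in the laboratory is not known. The difference between ANG II and control in samples 4 to 6 is therefore given as values and counts with no test. A gene was counted as higher or lower there when its 3 ANG II and 3 control values did not overlap and their means differed by more than 0.5 on the log2(FPKM + 1) scale, which is called the threshold below. The other 9 hypertensive-LVH and 9 control samples were tested with limma (two-sided, Benjamini-Hochberg adjustment over all genes tested). A differentially expressed gene (DEG) had an adjusted p-value under 0.05 and an absolute log2 fold change over 0.5. How the response in samples 4 to 6 differed from that in the other samples was not tested.

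ANG II is the effector peptide of the renin-angiotensin system. It constricts vessels and, through its type 1 receptor, acts on cardiomyocytes and fibroblasts. Under a sustained pressor dose the left ventricle thickens and cardiomyocytes re-express fetal genes such as the natriuretic peptides and the slow myosin heavy chain. Fibroblasts become activated and lay down collagen and other extracellular matrix (ECM), and monocytes enter the tissue.

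The deposited values were FPKM, sequenced fragments scaled by transcript length and library size, that had been shifted and scaled gene by gene within the 4 sets. For an adjusted gene the level of a set against the other sets was thereby lost, and a wide difference within a set shows as high ANG II values together with low control values. Some values were below 0 after this step (0.766% of all values). In samples 4 to 6 there were 1030 of them in the controls and 200 under ANG II, and 184 of the genes counted as higher and 6 of those counted as lower had at least 1. They were set to 0. A value brought down to 0 or close to it by this step widens a log2 difference, also in a gene without a value below 0. The spacing of the values gave back the differences within the sets in FPKM for 14307 of 14912 genes (95.9%). These differences, called before the adjustment, do not have that problem.

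Single libraries also stood apart. Genes of atrial myocytes were highest in ANG II sample 6, where 13 of them summed to 8789, against 3678 and 4437 in ANG II samples 4 and 5 and 252, 449.9 and 431 in the controls. Elsewhere the sum reached 9975, in control sample 2. Immediate early genes were highest in control sample 6, with Atf3, a stress-induced transcription factor, at 52.1 against 1.42 and 6.41 in controls 4 and 5. The markers of ventricular muscle were high in all 6 samples, as the tissue label says, although the extraction text of the labels names another kind of cell. The summed level of 14 ventricular cardiomyocyte genes was 40896 to 50608 under ANG II and 64049 to 69778 in the controls of samples 4 to 6. In the other samples it was 40389 to 59513 under ANG II and 52667 to 73464 in the controls. Of the 14, 6 were counted as lower and 0 as higher in samples 4 to 6. Their median difference was -0.28 there and -0.25 in the other samples. The part of these shifts in the results was not tested. Counts without ANG II sample 6 or control sample 6 are given where they moved a count of 5 or more genes by more than 1.5 times.

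In samples 4 to 6, 2386 of 14025 genes (17.0%) were higher and 425 (3.03%) lower under ANG II. Counts of gene lists below are to be read against these shares. The corresponding counts were 185 and 141 in samples 1 to 3, 650 and 426 in samples 7 to 9, and 358 and 390 in samples 10 to 12. Without regard to size, the 3 ANG II values lay above the 3 control values in 5402 genes (38.5%) and below them in 1266 (9.03%). Across genes, an ANG II and a control sample correlated at 0.939 to 0.970 in samples 4 to 6 and at 0.968 to 0.991 in the other sets, while samples of the same group within the set correlated at 0.984 to 0.991. Leaving out ANG II sample 6 gave 2127 higher and 315 lower genes, and leaving out control sample 6 gave 2423 and 435. Next to the threshold, at differences of 0.50 to 2 decimals, Mknk1 and Capn2 were just inside it and Cnnm2 and Tmem140 just outside.

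The median gene itself was 0.18 higher under ANG II in samples 4 to 6 on the log2 scale, against -0.01, -0.02 and 0.03 in samples 1 to 3, 7 to 9 and 10 to 12. A difference near 0.18 was thus at the level of the median gene. Scaling the samples by median ratios brought that median to 0.03 and the counts to 1638 higher and 866 lower. Quantile normalization brought it to -0.07 and the counts to 1151 higher and 936 lower. The share of higher genes among those counted was 84.9% as deposited, 65.4% with median ratios and 55.2% with quantile normalization.

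Before the adjustment samples 4 to 6 stood apart in the same way. Of 13622 tested genes with recovered differences, the 3 ANG II values lay above the 3 control values in 5557 and below them in 1271. In the other sets, taken in order, the counts were 626 and 1179, 2551 and 2451, and 1737 and 1533. The median absolute difference was 24.2% of a gene's mean in samples 4 to 6 and 13.3% to 14.0% in the other sets. Of the genes counted as higher, 2306 of 2343 recovered (98.4%) had no overlap before the adjustment either, and of those counted as lower, 409 of 413 (99.03%). The direction was the same before and after in 98.0% of genes in samples 4 to 6, and in 89.4% to 94.7% in the other sets.

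As deposited, the genes that were lower in samples 4 to 6 mostly had a negative difference elsewhere too, at a smaller size. Those that were higher differed little elsewhere at the median. Which genes were counted depended on the scaling, and this comparison was not repeated with another scaling. In the other 18 samples limma found 322 upregulated DEGs (2.3% of 14025) and 230 downregulated DEGs (1.64%). Of the 425 genes lower in samples 4 to 6, 389 (91.5%) had a negative difference in the other samples, where 48.7% of all genes did, and 339 (79.8%) were lower in every set. Of the 2386 higher genes, 1819 (76.2%) had a positive difference in the other samples, where 51.3% of all genes did, and 1130 (47.4%) were higher in every set. These counts are not independent of samples 4 to 6. The authors' step kept a single group difference per gene, to which samples 4 to 6 contributed, in the values of every set. The counts were made on deposited values only. The median difference of the lower genes was -0.64 in samples 4 to 6 and -0.35 in the others, and that of the higher genes 0.80 and 0.13. Upregulated DEGs of the other samples made up 214 of the higher genes, 8.97% of the 2386 and 66.5% of the 322. Downregulated DEGs made up 97 of the lower genes, 22.8% of the 425 and 42.2% of the 230.

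**Figure D1:**
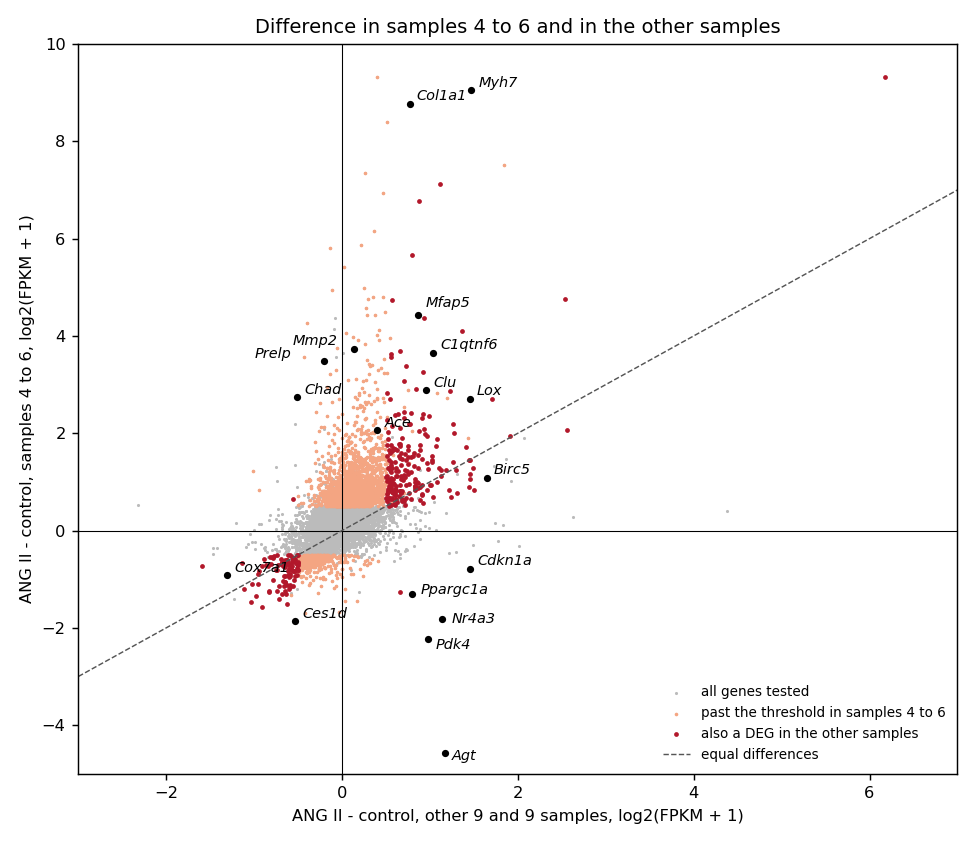
Difference of ANG II and control means on the log2(FPKM + 1) scale in samples 4 to 6 (vertical axis) against that in the other 9 and 9 samples (horizontal axis), 1 point per gene tested, with the line of equal differences. ECM genes such as Prelp, Mmp2 and Col1a1 lie far above the line, whereas Agt, Pdk4, Nr4a3 and Ppargc1a lie below 0 in samples 4 to 6 and above 0 in the others.

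A group of 278 genes escaped the adjustment and kept plain FPKM, which can be compared between sets. In 27 of them all 6 values of samples 4 to 6, ANG II and control alike, lay above the other 18 values, and in 5 all 6 lay below. The counts above and below were 0 and 1 for samples 1 to 3, 1 and 0 for samples 7 to 9, and 0 and 1 for samples 10 to 12. Of the 278 genes, 23 were 0 throughout samples 1 to 3, 27 throughout samples 7 to 9 and 36 throughout samples 10 to 12, but 0 genes throughout samples 4 to 6. The group thus leans towards genes present in samples 4 to 6 and absent from another set. Gm5148, a predicted gene, read 80.3, 58.7 and 67.5 FPKM in the ANG II samples and 52.3, 55.4 and 57.9 in the controls, and at most 0.110 in any other sample. Serinc4, a serine incorporator, read 28.6 to 37.2 in the 6 samples and at most 1.34 elsewhere. Entpd4, an intracellular nucleotide phosphatase, read 73.8 to 109.6 and at most 19.1 elsewhere. In the opposite direction Cox20, an assembly factor of cytochrome c oxidase, read 39.3 to 63.8 in the 6 samples and 70.4 to 155 elsewhere. Plin2, a coat protein of lipid droplets, read 36.3 to 48.1 in samples 4 to 6 and 27.5 to 43.8 in samples 7 to 9, and was listed at 0 in 11 of the 12 samples of the other sets. In these genes the 6 libraries differed from others in both groups alike, and what set them apart was not tested.

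**Figure D2:**
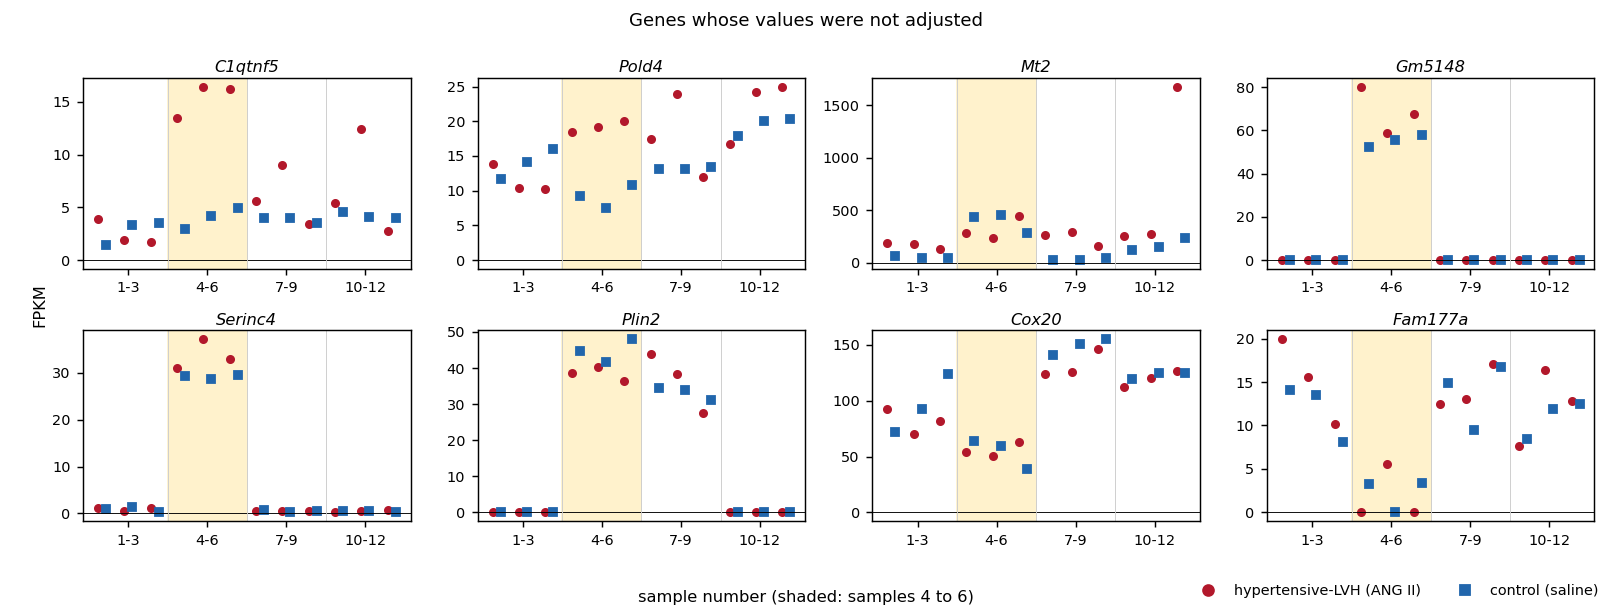
FPKM (vertical axes) of 8 genes whose values were not adjusted, in each of the 12 hypertensive-LVH (circles) and 12 control (squares) samples, by sample number. In the shaded samples 4 to 6, C1qtnf5 and Pold4 were higher in the 3 ANG II samples than in the 3 controls, whereas Gm5148 and Serinc4 were high in all 6 samples.

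Within the plain values the response to ANG II could be read directly. C1qtnf5, a secreted protein of the C1q/TNF family, read 13.5, 16.5 and 16.2 FPKM under ANG II and 2.94, 4.2 and 4.94 in controls 4 to 6. Its log2 fold change in the other samples was 0.25 ± 0.26 (4 of 9, limma, adjusted p = 0.52), where ± is the standard error, fold changes are on the log2(FPKM + 1) scale here and throughout, and the count of 9 gives the ANG II samples that lay on the same side of the control median as the fold change. Pold4, a small subunit of DNA polymerase delta, read 18.4, 19.1 and 20.04 under ANG II and 9.16, 7.53 and 10.8 in the controls of samples 4 to 6, with a fold change of 0.08 ± 0.17 (5 of 9, limma, adjusted p = 0.766) in the others. Of the 176 unadjusted genes that passed the filter, 23 (13.1%) were higher and 2 (1.14%) lower in samples 4 to 6, with a median log2 difference of 0.11. Higher genes thus outnumbered lower ones among these 176, at shares below the 17.0% and 3.03% of all genes. The 23 include Gm10591 and Gm13304, which had identical values. The part of the adjustment in the excess over all genes was not tested.

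Among genes with a mean of at least 1 and no negative value, the 10 most increased in samples 4 to 6 were Mfap5, Prg4, Lum, Mmp2, Nupr1, C1qtnf6, Prelp, Csrp2, Ifi30 and Mmp23, with log2 differences from 4.44 to 3.23. Mfap5, Prg4, Lum and Prelp code for proteins of the ECM. Mfap5, a glycoprotein of elastin-associated microfibrils, read 116, 124 and 144 under ANG II and 1.41, 12.1 and 5.66 in the controls. Elsewhere it ranged over 60.0 to 135 (median 73.1) under ANG II and 35.6 to 61.7 (median 44.1) in the controls, and it rose by 0.87 ± 0.15 (9 of 9, limma, adjusted p = 7.76e-04). It was thus higher under ANG II throughout, with the wider gap in samples 4 to 6.

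Mmp2, a gelatinase that degrades basement membrane collagen, was far apart in samples 4 to 6 and overlapped in the other samples. It read 107, 139 and 147 under ANG II and 3.93, 13.6 and 12.2 in the controls of the set, and 56.6 to 106 (median 67.8) and 56.8 to 72.7 (median 64.8) elsewhere, with a fold change of 0.13 ± 0.10 (5 of 9, limma, adjusted p = 0.351). Before the adjustment its difference was 118 FPKM in samples 4 to 6 and 1.63, 12.6 and 18.9 FPKM in samples 1 to 3, 7 to 9 and 10 to 12. Prelp, a leucine-rich proteoglycan that anchors basement membranes to connective tissue, showed the widest gap between the 2 comparisons among genes without a negative value. It read 89.8, 71.8 and 94.9 under ANG II and 2.26, 22.9 and 4.83 in the controls, with a fold change of -0.21 ± 0.14 (7 of 9, limma, adjusted p = 0.302) in the other samples. Lum (lumican), a proteoglycan that spaces collagen fibrils, read 73.2, 64.9 and 123 under ANG II and 5.87, 13.8 and 1.09 in the controls, with a fold change of 0.26 ± 0.14 (6 of 9, limma, adjusted p = 0.212) in the others. In both genes the 3 controls of the set lay well below its ANG II samples, while the other samples gave no fold change that passed limma. Prg4, the lubricating proteoglycan of joint surfaces, read 21.9, 18.4 and 57.4 under ANG II and 0.0607, 4.25 and 0.103 in the controls, with the highest value in ANG II sample 6.

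Nupr1, a stress-induced nuclear protein, read 20.4, 25.5 and 37.5 under ANG II and 1.46, 1.55 and 0.611 in the controls. C1qtnf6, a secreted C1q/TNF-related protein, read 29.3, 32.6 and 34.4 under ANG II and 0.0125, 1.90 and 5.22 in the controls. Csrp2, a LIM protein of smooth muscle and activated stromal cells, read 55.0, 48.6 and 72.3 under ANG II and 4.07, 10.4 and 2.07 in the controls. In these genes and in Ifi30, the thiol reductase of lysosomal antigen processing, ANG II and control did not overlap in samples 4 to 6, and all 4 were upregulated DEGs in the other samples as well. Ifi30 read 15.9, 23.1 and 38.4 under ANG II and 2.44, 1.11 and 1.47 in the controls. The fold changes in the other samples were 0.66 ± 0.19 (8 of 9, limma, adjusted p = 0.0208) for Nupr1, 1.04 ± 0.17 (9 of 9, limma, adjusted p = 5.71e-04) for C1qtnf6, 0.73 ± 0.19 (9 of 9, limma, adjusted p = 0.0107) for Csrp2 and 0.92 ± 0.30 (7 of 9, limma, adjusted p = 0.0323) for Ifi30.

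**Figure D3:**
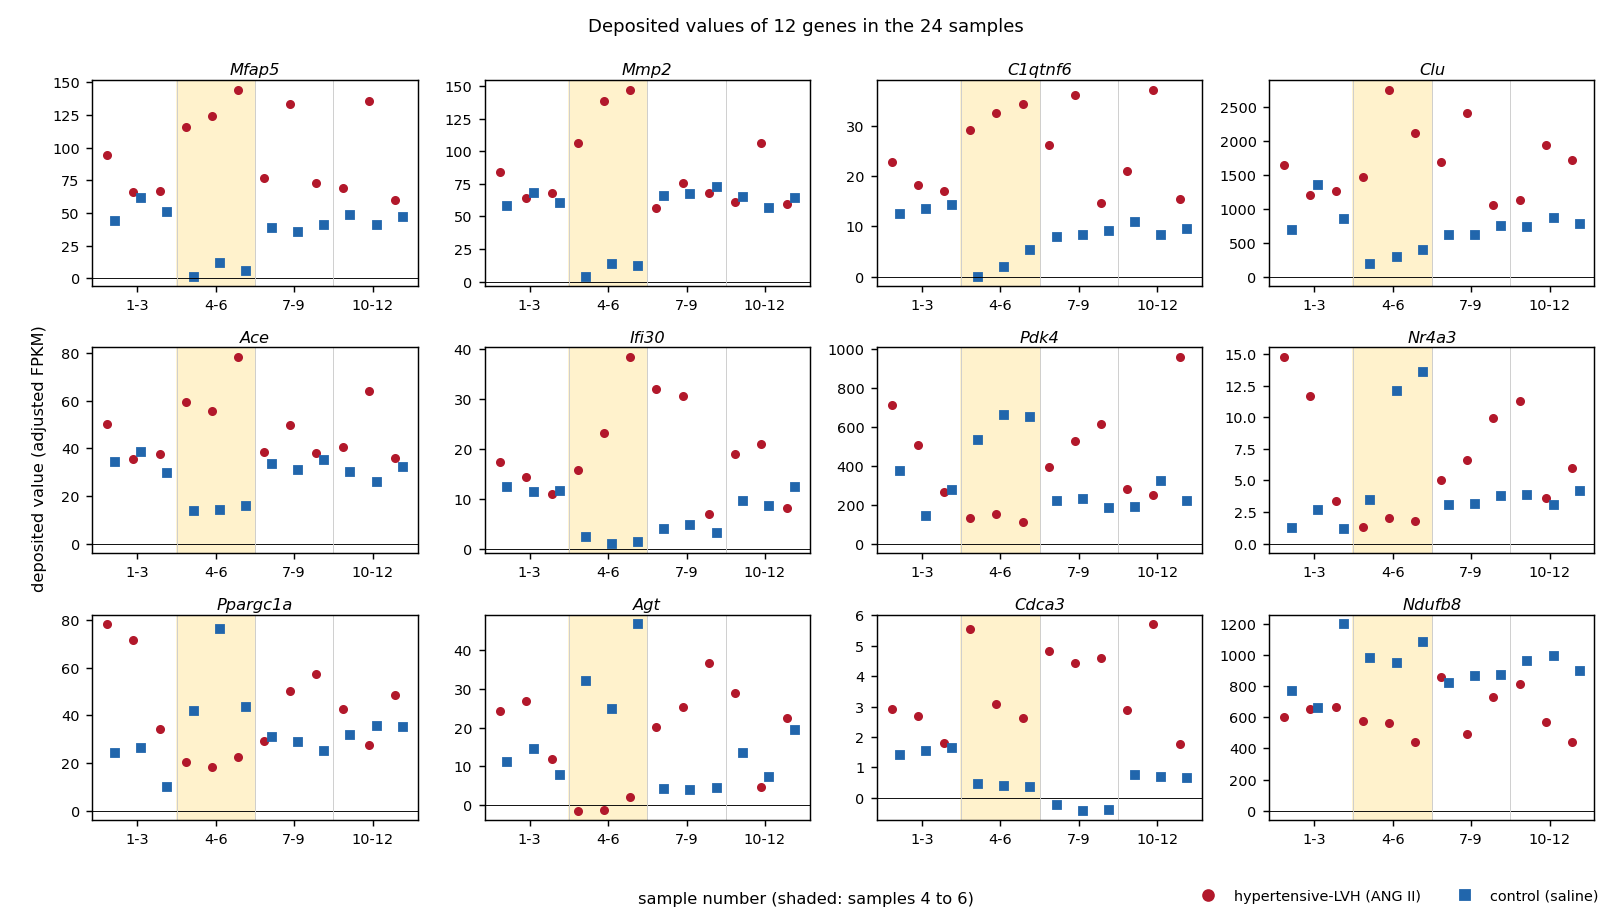
Deposited values, in adjusted FPKM (vertical axes), of 12 genes in each of the 12 hypertensive-LVH (circles) and 12 control (squares) samples, by sample number, with samples 4 to 6 shaded. In the shaded samples Mfap5, Mmp2, C1qtnf6, Clu, Ace and Ifi30 show ANG II values above all 3 controls, and Pdk4, Nr4a3, Ppargc1a and Agt show them below, with the opposite order of group medians in the other samples for the last 4.

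Structural genes of the ECM were higher in large numbers in samples 4 to 6. Of 33 collagen chain genes, 25 were higher and 0 lower (17.0% and 3.03% of all genes), with a median log2 difference of 1.15 against 0.19 in the other samples. There, 1 of the 33 was an upregulated DEG (2.3% of all genes). The summed level of the collagen chains was 2299, 2841 and 2879 under ANG II and 349, 405 and 536 in the controls of samples 4 to 6. In the other samples it was 1113 to 2478 under ANG II and 1104 to 1386 in the controls. The control sums of samples 4 to 6 lay below every other control, a pattern that the adjustment gives to any set with a wide difference.

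Col1a1 and Col3a1, the main fibrillar collagens of the heart, had all 3 control values below 0 in samples 4 to 6, so that their log2 differences of 8.77 and 9.32 are set by the replacement with 0. Before the adjustment the group means of Col1a1 differed by 499 FPKM in samples 4 to 6 and by 14.5, 203 and 89.0 FPKM in samples 1 to 3, 7 to 9 and 10 to 12. Those of Col3a1 differed by 679 FPKM, and by 7.99, 203 and 126 FPKM in the other sets. Those of Col5a1, which starts fibril assembly, differed by 53.7 FPKM, and by -0.173, 16.9 and 11.6 FPKM in the other sets. The order of the sets was the same in all 3 genes, with samples 4 to 6 first, samples 7 to 9 next and samples 1 to 3 last.

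Enzymes that fold, cut and cross-link collagen were higher in 24 of 33 genes, and 0 were lower. The median was 0.90, and 0.16 in the other samples, where 4 were upregulated DEGs. Lox, the lysyl oxidase that cross-links collagen and elastin, read 15.05, 19.0 and 30.6 under ANG II and 2.69, 3.24 and 1.31 in the controls, and it rose by 1.45 ± 0.36 (8 of 9, limma, adjusted p = 0.00833) in the others. Loxl2, its relative, read 24.1, 22.1 and 26.02 under ANG II and 0.549, 2.52 and 3.88 in the controls, and it rose by 0.70 ± 0.19 (9 of 9, limma, adjusted p = 0.0119). Both cross-linking enzymes were thus also upregulated in the other samples. Rcn3, a chaperone of the endoplasmic reticulum needed for collagen production, read 53.2, 57.0 and 64.8 under ANG II and 6.96, 9.99 and 7.24 in the controls, with a fold change of 0.46 ± 0.22 (7 of 9, limma, adjusted p = 0.153) in the others.

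Matricellular and other non-collagen matrix genes held more higher genes than any other list, 47 of 60, with 1 lower and a median of 1.59 against 0.21 in the other samples. Mgp (matrix Gla protein), an inhibitor of calcification, read 742, 651 and 1123 under ANG II and -3.81, 126 and -32.7 in the controls. Its difference before the adjustment was 1077 FPKM in samples 4 to 6 and -37.7, 214 and 161 FPKM in the other sets. Fn1 (fibronectin), a glycoprotein that links cells to collagen, differed by 121 FPKM, and by 4.36, 40.3 and 23.4 FPKM in the other sets. Mgp and Fn1 thus repeated the order of the sets seen in the collagens. Comp, the cartilage oligomeric matrix protein, differed by 66.6 FPKM, and by -1.37, 1.67 and 3.73 FPKM in the other sets, with a fold change of -0.14 ± 0.10 (7 of 9, limma, adjusted p = 0.386) in the other samples. Thbs4 (thrombospondin 4), a stress-responsive matricellular protein, differed by 64.6 FPKM, and by 1.31, 7.91 and 14.2 FPKM in the other sets. Postn (periostin), a marker of activated fibroblasts, read 159, 115 and 238 under ANG II and 73.0, 76.9 and 70.9 in the controls. Its log2 difference of 1.14 was below the median of the list, and its fold change in the other samples was 0.31 ± 0.21 (6 of 9, limma, adjusted p = 0.326). Emilin2, an elastin interface glycoprotein, was the lower member with 19.1, 10.2 and 15.5 under ANG II and 28.4, 26.7 and 21.7 in the controls.

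**Figure D4:**
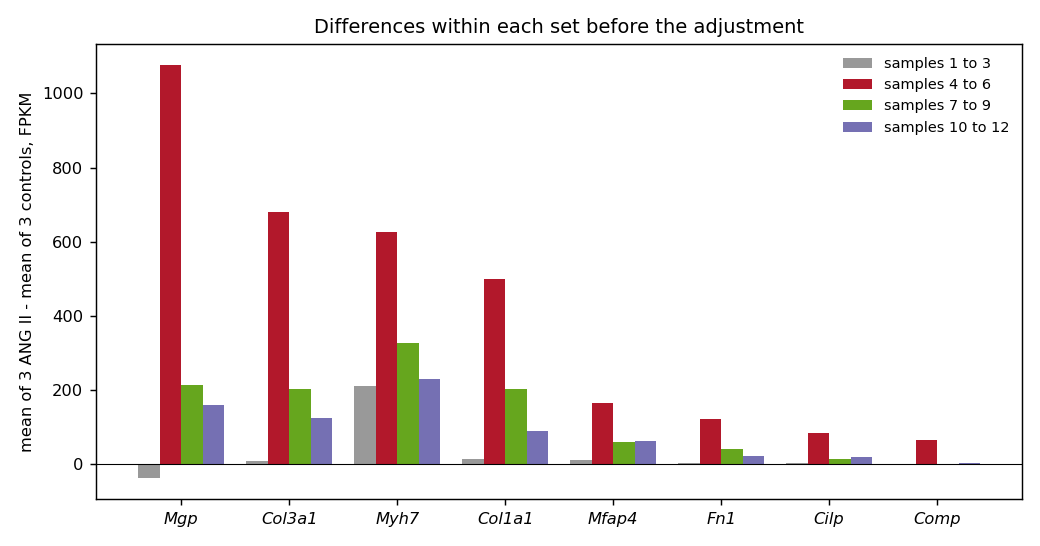
Difference of the mean of 3 ANG II samples and the mean of 3 control samples, in FPKM before the adjustment (vertical axis), for 8 genes in each of the 4 sets. The bar of samples 4 to 6 is the highest for each gene, at 1077 FPKM for Mgp and 66.6 FPKM for Comp.

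Metalloproteinases and their inhibitors differed in both directions, with 16 of 32 higher and 2 lower. Timp1, the inhibitor induced in injured hearts, read 32.9, 54.2 and 84.0 under ANG II and 3.67, 0.728 and -6.74 in the controls, and it rose by 2.54 ± 0.69 (9 of 9, limma, adjusted p = 0.0132) in the other samples. Timp4, an inhibitor abundant in the normal heart, was among the 10 most decreased genes and read 19.4, 12.4 and 11.6 under ANG II and 49.5, 38.9 and 33.6 in the controls. Its fold change in the other samples was 0.17 ± 0.25 (6 of 9, limma, adjusted p = 0.668), and before the adjustment its differences were -30.4 FPKM in samples 4 to 6 and 20.8, 9.29 and -18.2 FPKM in the other sets. The sets thus differed in the sign for Timp4, with samples 10 to 12 on the side of samples 4 to 6. Mmp15, a membrane-bound metalloproteinase, was the other lower member (43.8, 43.5 and 25.2 against 51.2, 51.5 and 63.5 in the controls).

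Markers of activated fibroblasts were higher in 22 of 23 genes in samples 4 to 6, and 0 were lower (median 2.02). Their median in the other samples was 0.35 and 7 were upregulated DEGs. Markers of quiescent fibroblasts were higher in 11 of 20 (median 0.61), while in the other samples their median was -0.05, with 1 upregulated and 3 downregulated DEGs. Fibroblast genes of both states were thus high together in samples 4 to 6. Pdgfra, the receptor that marks cardiac fibroblasts, read 14.5, 11.7 and 16.1 under ANG II and 10.1, 11.2 and 6.76 in the controls, with a fold change of 0.08 ± 0.08 (4 of 9, limma, adjusted p = 0.491) in the others. Tcf21, a fibroblast transcription factor, read 9.88, 7.07 and 7.17 under ANG II and 4.54, 4.10 and 2.354 in the controls, with a fold change of -0.06 ± 0.14 (7 of 9, limma, adjusted p = 0.809). Dcn (decorin), a proteoglycan of resting fibroblasts, read 407, 328 and 616 under ANG II and 187, 199 and 118 in the controls, with a fold change of -0.04 ± 0.10 (5 of 9, limma, adjusted p = 0.826). In all 3 the groups of samples 4 to 6 did not overlap, and none passed limma in the other samples. Pi16, a marker of a fibroblast population around vessels, read 93.6, 114 and 156 under ANG II and 8.36, 10.97 and 22.1 in the controls, and its log2 difference of 3.12 was the third in the list after Mfap5 and Lum.

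TGF-β is the main fibrogenic growth factor. Of 53 genes of the TGF-β, activin and BMP families, 23 were higher and 1 lower, and all 3 TGF-β ligand genes were among the higher ones. Tgfb1 read 41.5, 50.0 and 46.7 under ANG II and 21.0, 24.4 and 29.0 in the controls, Tgfb2 read 7.13, 9.35 and 8.96 under ANG II and 3.54, 3.92 and 2.73 in the controls, and Tgfb3 read 16.7, 21.7 and 19.2 under ANG II and 2.57, 4.83 and 2.41 in the controls. The gap was widest for Tgfb3. In the other samples the fold changes were 0.30 ± 0.11 (8 of 9, limma, adjusted p = 0.0662) for Tgfb1, 0.50 ± 0.14 (9 of 9, limma, adjusted p = 0.0161) for Tgfb2 and 0.51 ± 0.16 (9 of 9, limma, adjusted p = 0.0277) for Tgfb3. Ltbp3, a latency protein that holds TGF-β in the matrix, read 42.2, 39.3 and 48.8 under ANG II and 8.77, 11.6 and 9.87 in the controls. Fstl3, a secreted binder of activin and myostatin, read 12.7, 14.6 and 14.0 under ANG II and 2.13, 3.55 and 1.35 in the controls, and it rose by 1.26 ± 0.18 (9 of 9, limma, adjusted p = 1.86e-04) in the others. Bmp5, a bone morphogenetic protein, was the lower gene (0.220, 0.237 and 0.318 against 1.07, 0.875 and 0.799 in the controls).

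Of 58 growth factor and receptor genes, 23 were higher and 2 lower. The 4 most increased were Sfrp2, Dkk3, Sfrp1 and Frzb, secreted proteins of the families of Wnt antagonists. Sfrp1 read 18.8, 26.3 and 30.5 under ANG II and 0.847, 1.45 and -0.466 in the controls, and Frzb read 12.6, 14.4 and 19.2 under ANG II and -1.30, 0.242 and -1.91 in the controls, so that both were close to or below 0 in the 3 controls. The lower members were Fgf16 and Vegfb. Fgf16, a growth factor of cardiomyocytes, read 2.97, 2.72 and 2.50 under ANG II and 5.77, 5.53 and 3.97 in the controls, and it was also downregulated in the other samples (-0.81 ± 0.13, 9 of 9, limma, adjusted p = 4.74e-04). Vegfb, a vascular growth factor linked to fatty acid uptake, read 276, 279 and 238 under ANG II and 398, 379.9 and 391 in the controls.

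In the renin-angiotensin system the converting enzyme and the precursor went in opposite directions. Ace, which makes ANG II from angiotensin I, read 59.3, 55.7 and 78.5 under ANG II and 13.6, 14.2 and 15.9 in the controls of samples 4 to 6. In the other samples it ranged over 35.4 to 64.2 (median 38.7) and 25.8 to 38.5 (median 32.0), and rose by 0.40 ± 0.10 (9 of 9, limma, adjusted p = 0.00917), less than is required of a DEG. Agt (angiotensinogen), the precursor of the peptide, read -1.45, -1.19 and 2.03 under ANG II and 32.1, 24.8 and 46.9 in the controls. Before the adjustment its difference was -54.7 FPKM in samples 4 to 6, and 10.5, 18.8 and 3.49 FPKM in the other sets, so that only samples 4 to 6 had a lower mean under ANG II. Agt was an upregulated DEG in the other samples (1.17 ± 0.34, 8 of 9, limma, adjusted p = 0.0197). That call was lost without samples 7 to 9 (0.53, limma, adjusted p = 0.385) and without samples 1 to 3 (1.34, limma, adjusted p = 0.07), and it was kept in the other alternatives in which Agt was tested. Agtr1a, the type 1 receptor, read 22.7, 18.3 and 20.3 under ANG II and 28.8, 25.1 and 22.5 in the controls, and its groups overlapped. Of 18 renin-angiotensin and corticosteroid genes 4 were higher and 1 lower (17.0% and 3.03% of all genes). The median of 0.19, at the level of all genes, turned to -0.15 with quantile normalization.

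Genes of recruited monocytes and macrophages were higher in 37 of 46, and 0 were lower (median 1.22). Without ANG II sample 6, 31 were higher (median 0.94). In samples 7 to 9 the median was also 1.22, and in the other 18 samples the list held 16 upregulated DEGs. Ctss, the lysosomal protease cathepsin S, read 30.6, 41.0 and 93.9 under ANG II and 9.59, 8.58 and 8.45 in the controls. Cd52, a leukocyte surface peptide, read 19.4, 28.1 and 53.7 under ANG II and 5.65, 2.99 and 5.38 in the controls. Ccr2, the chemokine receptor of recruited monocytes, read 2.45, 2.86 and 7.79 under ANG II and 1.39, 1.46 and 1.09 in the controls. In each of these genes ANG II sample 6 had the highest value of the set, and the other 2 ANG II samples were above all 3 controls too.

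Genes of resident macrophages were higher in 16 of 24 and lower in 1 (without ANG II sample 6, higher in 13), with a median of 0.86 against 0.22 in the other samples. C1qa, a subunit of the first complement component made by macrophages, read 110.5, 139 and 205 under ANG II and 56.5, 50.2 and 54.5 in the controls, with a fold change of 0.39 ± 0.18 (6 of 9, limma, adjusted p = 0.125) in the others. C1qb, its partner, read 105, 134 and 195 under ANG II and 50.2, 43.1 and 49.9 in the controls, with a fold change of 0.47 ± 0.18 (7 of 9, limma, adjusted p = 0.0689). Neither passed limma in the other samples. Retnla, a gene of alternatively activated macrophages, pointed the other way (2.48, -0.610 and 4.73 against 12.3, 7.41 and 2.32 in the controls), with overlapping groups in samples 4 to 6, and it was downregulated in the others (-1.23 ± 0.23, 9 of 9, limma, adjusted p = 0.00112).

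Antigen presentation genes were higher in 19 of 29 and lower in 0 in samples 4 to 6, and higher in 17 without ANG II sample 6. In the other samples limma called 0 of the 29, of which 4 had an unadjusted p under 0.05, and the median was 0.09. The class II genes present peptides to helper T cells. H2-Ab1 read 74.1, 131 and 184 under ANG II and 35.5, 31.7 and 44.1 in the controls, with a fold change of 0.11 ± 0.18 (6 of 9, limma, adjusted p = 0.688) in the others. H2-Eb1 read 43.9, 89.9 and 127 under ANG II and 22.9, 25.1 and 29.3 in the controls, with a fold change of 0.03 ± 0.12 (6 of 9, limma, adjusted p = 0.87). In both genes the 3 ANG II samples differed among themselves by more than the 3 controls did. Interferon-stimulated genes were higher in 21 of 38, and in 14 without ANG II sample 6. Genes of T, B and NK cells were higher in 6 of 26 (17.0% of all genes), and in 1 without that sample. With quantile normalization the counts of these lists were 10 and 1, and with median-ratio scaling 13 and 2. Ccl5, a chemokine of T cells, read 4.45, 5.58 and 10.1 under ANG II and 1.57, 1.65 and 0.858 in the controls.

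Complement and coagulation genes were higher in 27 of 44 and lower in 0 (median 0.95, and 0.13 in the other samples). C3, the central complement component, read 117, 207 and 303 under ANG II and 59.4, 21.1 and 23.3 in the controls, while its fold change in the other samples was -0.25 ± 0.16 (5 of 9, limma, adjusted p = 0.29). Clu (clusterin), a secreted chaperone and complement inhibitor, read 1463, 2758 and 2125 under ANG II and 189, 288 and 390.1 in the controls, and it rose in the other samples too (0.95 ± 0.16, 9 of 9, limma, adjusted p = 7.54e-04). C3 and Clu thus had similar log2 differences in samples 4 to 6 (2.62 and 2.88), and only Clu passed limma elsewhere. Serpina3n, an acute-phase protease inhibitor, differed by 309 FPKM before the adjustment, and by -0.697, 103 and 218 FPKM in the other sets.

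Among 45 chemokine and receptor genes, 22 were higher and 2 lower (5 lower without control sample 6). Ccl8, a monocyte chemokine, read 20.2, 21.1 and 66.4 under ANG II and -8.95, -7.71 and -9.43 in the controls, and differed by 61.6 FPKM before the adjustment, against 0.457, 12.1 and 11.9 FPKM in the other sets. Cxcl12, the stromal chemokine that retains CXCR4-bearing cells, read 81.7, 91.9 and 108 under ANG II and 54.9, 53.4 and 55.2 in the controls. Ccl2, the main attractant of monocytes, read 2.61, 3.17 and 2.84 under ANG II and 14.0, 5.30 and 2.31 in the controls and overlapped. The lower genes were Ccl24, an eosinophil attractant (1.46, 0.514 and 0.753 against 2.64, 1.504 and 1.84 in the controls), and Ccrl2, a chemokine receptor-like gene (8.34, 7.65 and 10.7 against 11.6, 14.9 and 19.0 in the controls). Of 33 genes of the interleukin-6 and interleukin-1 families, 5 were higher, a share near the 17.0% of all genes, and 3 without ANG II sample 6. Il33, an alarmin of stromal cells, was among the 5 (4.37, 4.93 and 12.9 against 1.82, 1.51 and 0.308 in the controls).

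Genes of the hypertrophic program were higher in 11 of 19 and lower in 1, and 12 of the 19 were upregulated DEGs in the other samples. Myh7, the slow myosin heavy chain of the fetal ventricle, read 340.5, 588 and 741 under ANG II with all 3 controls below 0. Its difference before the adjustment was 625.5 FPKM in samples 4 to 6 and 210.2, 327 and 230.5 FPKM in the other sets, and it rose by 1.47 ± 0.19 (9 of 9, limma, adjusted p = 1.33e-04) in the other samples. The mean of Myh7 was thus higher under ANG II in every set. Acta1, skeletal actin, another fetal gene, read 1448, 2713 and 944 under ANG II and 72.7, 292 and 612 in the controls, and it rose by 1.70 ± 0.38 (9 of 9, limma, adjusted p = 0.00431) elsewhere. Nppa, the atrial natriuretic peptide, read 1751, 1637 and 3998 under ANG II and -309.8, 43.4 and -14.1 in the controls of the set. Its highest value was in ANG II sample 6, where atrial genes were high, and its log2 difference was 8.90 without that sample and 9.32 with it. Nppb, the brain natriuretic peptide, overlapped in samples 4 to 6, with 341, 540.5 and 278 under ANG II and 222, 331 and 540.2 in the controls. Ankrd1, a stretch-responsive repeat protein of the sarcomere, read 814, 1399 and 1150.0 under ANG II and 320.1, 421 and 467 in the controls.

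Of 13 atrial myocyte genes, 5 were higher with or without ANG II sample 6. The median of the list was 2.88 with it and 1.83 without it, against -0.08 in the other samples. Myl7, the atrial regulatory myosin light chain, read 145, -54.9 and 1039.9 under ANG II and -63.3, 16.2 and -75.4 in the controls and overlapped, with a low value in ANG II sample 5.

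Genes of the adult sarcomere went the other way, with 6 of 24 lower (Myh6, Myl2, Myl3, Tnni3, Tpm1 and Actc1) and 1 higher (Synpo2l). Without ANG II sample 6, 3 were lower. The list median of -0.17 turned to 0.02 with quantile normalization, under which 0 were lower, and was -0.37 with median-ratio scaling. Myh6, the fast myosin heavy chain of the adult heart, read 5669.5, 5896 and 5145 under ANG II and 9907, 8825 and 8503 in the controls, with a fold change of -0.07 ± 0.10 (5 of 9, limma, adjusted p = 0.671) in the others. Tnni3, cardiac troponin I, read 4129, 4035 and 3621 under ANG II and 6931, 6511 and 6413 in the controls, and it was also downregulated in the others (-0.58 ± 0.11, 9 of 9, limma, adjusted p = 0.0011). Synpo2l, an actin-associated protein of the Z-disc, read 87.2, 135 and 62.5 under ANG II and 26.6, 44.7 and 57.6 in the controls.

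Of 41 actin cytoskeleton and tubulin genes, 26 were higher and 2 lower. Vim (vimentin), the intermediate filament of fibroblasts and endothelium, read 502, 367 and 562 under ANG II and 65.4, 126 and 78.6 in the controls, and it rose by 0.78 ± 0.17 (9 of 9, limma, adjusted p = 0.00391) elsewhere. Tuba4a, an α-tubulin of muscle, was one of the lower genes with 257, 253 and 167 under ANG II and 523, 535 and 594 in the controls, and it was downregulated in the other samples as well (-0.68 ± 0.18, 9 of 9, limma, adjusted p = 0.0112). Smooth muscle and pericyte genes were higher in 14 of 22 and lower in 1. Tagln (transgelin), an actin-binding protein of smooth muscle and myofibroblasts, read 48.3, 49.0 and 68.5 under ANG II and 0.675, 9.36 and -2.20 in the controls. Acta2, smooth muscle actin, read 141, 126 and 139 under ANG II and 103, 108 and 60.1 in the controls, a narrower gap. Endothelial genes were higher in 10 of 36 (6 with quantile normalization), with Plvap, a component of endothelial diaphragms, at 25.1, 25.2 and 36.8 under ANG II and 3.43, 10.6 and 1.56 in the controls. Of 27 integrin genes 12 were higher, and of 19 annexin and S100 genes 12.

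Genes of energy metabolism held the highest counts of lower genes. Of 48 genes of fatty acid uptake and oxidation, the main fuel pathway of the adult heart, 28 were lower and 1 higher in samples 4 to 6 (median -0.53). The count of lower genes was 29 with quantile normalization, 35 with median-ratio scaling and 23 without ANG II sample 6. The median in the other samples was -0.16, with 4 downregulated (1.64% of all genes) and 2 upregulated DEGs. Cpt1b, which carries fatty acids into mitochondria, read 202, 212 and 169 under ANG II and 274, 274 and 313 in the controls, with a fold change of -0.03 ± 0.09 (4 of 9, limma, adjusted p = 0.86) elsewhere. Hadha, a subunit of the trifunctional protein of β-oxidation, read 451, 435 and 390.5 under ANG II and 699, 659 and 603 in the controls. Acadvl, the very-long-chain acyl-CoA dehydrogenase, read 368, 347 and 302 under ANG II and 618, 549.7 and 584 in the controls. In all 3 enzymes each ANG II sample lay below each control. Ppara, the nuclear receptor that drives this pathway, read 17.7, 14.2 and 15.2 under ANG II and 26.7, 29.9 and 17.8 in the controls, with a fold change of 0.13 ± 0.16 (5 of 9, limma, adjusted p = 0.599) elsewhere. Acsl5, an acyl-CoA synthetase, was the higher member (13.2, 11.9 and 15.9 against 7.88, 6.86 and 7.63 in the controls).

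Subunits of the respiratory chain were lower in counts that depended on the scaling. Of 37 complex I genes, 17 were lower and 0 higher, and of 45 genes of complexes II to V, 19 were lower and 0 higher. Without ANG II sample 6 the counts were 9 and 10. The medians were -0.50 and -0.44, against -0.39 and -0.34 in the other samples. With quantile normalization 11 and 5 were lower (medians -0.44 and -0.30), and with median-ratio scaling 34 and 32 (medians -0.70 and -0.64). Ndufb8, a complex I subunit, read 574, 562 and 438 under ANG II and 980.1, 946 and 1085 in the controls. Uqcrc1, a core subunit of complex III, read 737, 736 and 595 under ANG II and 1178, 1109 and 1247 in the controls. Cox7a1, the heart isoform of a cytochrome c oxidase subunit, read 923, 901 and 618 under ANG II and 1630.5, 1326 and 1609 in the controls, a log2 difference of -0.92, and its fold change in the other samples was -1.31 ± 0.21 (9 of 9, limma, adjusted p = 3.96e-04). In these 3 subunits ANG II sample 6 had the lowest value.

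Of 40 genes of the citrate cycle, branched-chain amino acids and ketones, 15 were lower and 0 higher, and 26 were lower with median-ratio scaling. Bckdha, a subunit of the branched-chain ketoacid dehydrogenase, read 82.8, 107 and 66.4 under ANG II and 173, 161 and 182 in the controls. Of 76 mitochondrial ribosomal proteins 9 were lower and 0 higher. That count was 3 without ANG II sample 6, 5 without control sample 6, 19 with quantile normalization and 33 with median-ratio scaling. Of 30 genes of glucose uptake and glycolysis 4 were higher and 8 lower. Slc16a3, a lactate exporter, was among the higher ones (3.53, 5.88 and 8.76 against 0.563, 0.939 and 3.02 in the controls), and Eno3, muscle enolase, among the lower ones (683, 656 and 574 against 1187, 1037 and 1228).

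The 10 most decreased genes in samples 4 to 6, by the same filter as the most increased, were Pdk4, Ces1d, Nr4a3, Ucp3, Slc25a33, Scgb1c1, Cryba4, Lrrc15, Timp4 and Fam222a, with log2 differences from -2.22 to -1.44. Ces1d, a carboxylesterase that releases fatty acids from lipids, read 25.1, 23.996 and 19.2 under ANG II and 109, 85.2 and 66.5 in the controls, and it was downregulated in the other samples (-0.54 ± 0.13, 8 of 9, limma, adjusted p = 0.00634). Lrrc15, a membrane protein with leucine-rich repeats, read 2.53, 1.60 and 0.944 under ANG II and 7.60, 5.79 and 5.39 in the controls, and was downregulated there too (-1.04 ± 0.15, 9 of 9, limma, adjusted p = 2.12e-04). The same held for the secretoglobin Scgb1c1 and the crystallin Cryba4 (-0.91 ± 0.32, 8 of 9, limma, adjusted p = 0.0489, and -0.63 ± 0.15, 9 of 9, limma, adjusted p = 0.00622). Ucp3, an uncoupling protein of muscle mitochondria, read 14.5, 11.9 and 17.1 under ANG II and 53.02, 39.4 and 55.8 in the controls, with a fold change of -0.42 ± 0.28 (8 of 9, limma, adjusted p = 0.3) elsewhere. Slc25a33, a mitochondrial carrier of pyrimidine nucleotides, read 4.65, 4.01 and 5.56 under ANG II and 14.6, 17.96 and 19.4 in the controls, with a fold change of -0.03 ± 0.18 (4 of 9, limma, adjusted p = 0.916). Of these 6 genes, 4 were thus DEGs in the same direction in the other samples. Among the rest of the 10, Pdk4 and Nr4a3 were DEGs in the opposite direction there, and Timp4 and Fam222a were not DEGs.

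In 7 genes past the threshold in samples 4 to 6 the other samples held a DEG in the opposite direction, namely Agt, Pdk4, Nr4a3, Ppargc1a and Fut2, which were lower in samples 4 to 6, and Chad and Sema6c, which were higher. Pdk4, the kinase that keeps pyruvate out of the citrate cycle during fasting, read 133, 149.8 and 112 under ANG II and 533, 660.2 and 650.3 in the controls of samples 4 to 6. In the other samples it ranged over 249.9 to 961 (median 507) under ANG II and 141 to 372 (median 221) in the controls, and rose by 0.98 ± 0.24 (9 of 9, limma, adjusted p = 0.00814). Before the adjustment the difference was -482 FPKM in samples 4 to 6 and 262, 180.1 and 293 FPKM in the other sets.

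Ppargc1a (PGC-1α), the coactivator of mitochondrial biogenesis, read 20.3, 18.5 and 22.7 under ANG II and 41.9, 76.2 and 43.5 in the controls of samples 4 to 6, while it rose in the others (0.79 ± 0.22, 8 of 9, limma, adjusted p = 0.0171). Its differences before the adjustment were -32.6 FPKM in samples 4 to 6 and 64.8, 10.2 and 3.84 FPKM in the other sets. Nr4a3, an immediate early nuclear receptor, read 1.29, 2.04 and 1.79 under ANG II and 3.48, 12.1 and 13.6 in the controls, and it rose in the others by 1.14 ± 0.25 (9 of 9, limma, adjusted p = 0.0034). Its differences before the adjustment were -11.0 FPKM and 11.6, 2.47 and 2.62 FPKM. For Pdk4, Ppargc1a and Nr4a3, samples 4 to 6 were thus the only set with a lower mean under ANG II. The calls in the other samples were not all firm. Without samples 7 to 9 the adjusted p of limma was 0.148 for Pdk4 and 0.0991 for Ppargc1a, while Nr4a3 kept its call (1.27, limma, adjusted p = 0.0474). On the values before the adjustment the adjusted p of limma was 0.0872 for Pdk4, 0.0811 for Ppargc1a and 0.0576 for Nr4a3. Nr4a3 lost its call only there. Ppargc1a also lost its call without samples 1 to 3 (0.40, limma, adjusted p = 0.132).

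Fut2, a fucosyltransferase, read 1.004, 1.78 and 0.1499 under ANG II and 2.82, 4.52 and 3.17 in the controls of samples 4 to 6, and it was upregulated in the others (0.66 ± 0.15, 9 of 9, limma, adjusted p = 0.00511). Without samples 7 to 9 its adjusted p was 0.11 by limma, and before the adjustment 0.0872. Chad (chondroadherin), a leucine-rich ECM protein, read 7.18, 3.66 and 18.9 under ANG II and -2.95, 1.57 and -3.26 in the controls, and it was downregulated in the others (-0.52 ± 0.15, 8 of 9, limma, adjusted p = 0.0169). That call was lost without samples 7 to 9 (-0.33, limma, adjusted p = 0.279), without samples 10 to 12 (-0.63, limma, adjusted p = 0.0659), with the sample number as a replicate block (-0.52, limma, adjusted p = 0.0765), without control sample 2 (-0.44, under the size of a DEG) and before the adjustment (limma, adjusted p = 0.537). Sema6c, a semaphorin, differed by 0.66 in samples 4 to 6 and by -0.55 in the others.

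Cdkn1a and the metallothioneins, picked for description after their values had been seen, had a lower mean under ANG II in samples 4 to 6. Cdkn1a (p21), an inhibitor of cyclin-dependent kinases, read 78.8, 106 and 55.9 under ANG II and 100.05, 137 and 181 in the controls of samples 4 to 6, which overlapped. Before the adjustment its difference was -68.3 FPKM there and 129, 94.7 and 84.4 FPKM in the other sets, and it rose by 1.45 ± 0.24 (9 of 9, limma, adjusted p = 5.25e-04) in the other samples. Mt2, a metallothionein that binds zinc and copper, had escaped the adjustment, so that its FPKM can be compared between sets. Controls 4 to 6 read 441, 461 and 288 FPKM, all above the other 9 controls at 27.6 to 241 (median 44.4). The ANG II samples of the set, at 284, 237 and 448 FPKM, lay within the other ANG II samples at 128 to 1681 (median 258). The absence of a rise in Mt2 in samples 4 to 6 thus came with high controls, measured on unadjusted values, whereas it rose by 2.02 ± 0.46 (9 of 9, limma, adjusted p = 0.0045) in the others. Mt1, its relative, read 574, 396 and 745 under ANG II and 859, 885 and 584 in the controls, and it rose by 1.21 ± 0.24 (9 of 9, limma, adjusted p = 0.00167) in the others.

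Immediate early genes depended on control sample 6. Of 25 tested, 5 were higher and 2 lower with it (17.0% and 3.03% of all genes). Without it 13 were higher and 1 lower, and the median was 0.28 with it and 0.64 without it. Nr4a1, an orphan nuclear receptor, read 39.1, 44.3 and 35.4 under ANG II and 3.85, 7.82 and 62.9 in the controls. Cyr61, a matricellular target of the Hippo pathway, read 89.7, 101 and 60.2 under ANG II and 8.48, 8.86 and 111 in the controls. Socs3, the feedback inhibitor of cytokine receptors, read 3.49, 8.78 and 7.45 under ANG II and 3.42, 5.38 and 34.9 in the controls. In each the value of control sample 6 was far above those of controls 4 and 5. Jun, a subunit of the AP-1 transcription factor, did not share this and was higher under ANG II (34.9, 34.6 and 39.3 against 16.8, 16.8 and 7.94 in the controls).

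Genes of cell division were counted as mitosis and DNA replication. Of 67 genes of mitosis, 38 were higher and 0 lower (median 0.64), and in the other samples 39 were upregulated DEGs and 1 downregulated (median 0.56). The medians of the other sets, in order, were 0.27, 0.97 and 0.49, so that samples 4 to 6 did not hold the highest. Both scalings reduced the shift of the median gene. With quantile normalization 15 of the 67 were higher and 2 lower (median 0.28), and with median-ratio scaling 34 were higher and 2 lower (median 0.55). Of 60 genes of DNA replication, 16 were higher and 0 lower (median 0.32). With quantile normalization 3 were higher and 1 lower, and the median turned to -0.00. With median-ratio scaling 12 were higher and 1 lower (median 0.19). Of these 60, 5 were upregulated DEGs in the other samples and 1 a downregulated one.

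The promoters of the 4 mitosis genes with the largest differences in samples 4 to 6 are printed because genes of this group share short elements upstream of their start. The 150 bases before the RefSeq start of each gene are given (GRCm38.p6, 5′ to 3′ on the strand of the gene). Capitals mark each match of CCAAT, a site of the factor NF-Y that reads as ATTGG on the other strand, and of TTTGAA, an element of cell cycle promoters bound by the DREAM complex that reads as TTCAAA on the other strand.
Ube2c, chr2:164769779-164769928, plus strand: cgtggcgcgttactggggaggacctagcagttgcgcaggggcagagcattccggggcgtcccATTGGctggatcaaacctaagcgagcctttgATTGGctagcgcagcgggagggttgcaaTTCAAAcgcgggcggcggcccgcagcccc
Cdca3, chr6:124830026-124830175, plus strand: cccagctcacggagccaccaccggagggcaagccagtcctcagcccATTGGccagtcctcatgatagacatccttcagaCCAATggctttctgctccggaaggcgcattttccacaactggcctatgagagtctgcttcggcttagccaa
Cdc20, chr4:118437344-118437493, minus strand: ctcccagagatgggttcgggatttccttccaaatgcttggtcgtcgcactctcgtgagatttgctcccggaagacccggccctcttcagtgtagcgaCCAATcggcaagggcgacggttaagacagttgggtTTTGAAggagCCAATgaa
Plk1, chr7:122159285-122159434, plus strand: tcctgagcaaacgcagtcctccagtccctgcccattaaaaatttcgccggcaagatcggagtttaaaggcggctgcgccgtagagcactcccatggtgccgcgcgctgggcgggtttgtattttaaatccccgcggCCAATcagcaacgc
Ube2c, which joins ubiquitin to the cyclins at the end of mitosis, read 12.5, 9.73 and 6.71 under ANG II and 1.14, 2.50 and 1.61 in the controls of samples 4 to 6. Cdca3, a trigger of mitotic entry, read 5.56, 3.099 and 2.64 under ANG II and 0.450, 0.399 and 0.358 in the controls. Cdc20, the activator of the anaphase-promoting complex, read 9.20, 4.13 and 3.60 under ANG II and 1.21, 1.17 and 0.947 in the controls, and Plk1, the polo-like kinase of mitosis, 4.19, 3.25 and 2.12 under ANG II and 0.418, 0.923 and 0.0584 in the controls. In all 4 the highest of the 6 values was in ANG II sample 4. They rose in the other samples too, by 1.91 ± 0.35 (9 of 9, limma, adjusted p = 0.00107) for Ube2c, 1.41 ± 0.23 (9 of 9, limma, adjusted p = 4.54e-04) for Cdca3, 0.72 ± 0.15 (9 of 9, limma, adjusted p = 0.00277) for Cdc20 and 1.03 ± 0.17 (9 of 9, limma, adjusted p = 4.70e-04) for Plk1.

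Counting matches on both strands in the 250 bases before the start, CCAAT was found in 67.3% and TTTGAA in 40% of 55 mitosis genes with a window, against 39.8% and 12.9% of 11012 tested genes. Among the 29 mitosis genes past the threshold in samples 4 to 6 the shares were 75.9% and 41.4%, and among the other 26 they were 57.7% and 38.5%. Matches of the motifs overlapped in 1 of 58 windows. A match is a run of letters and not a shown binding site.

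Of 15 genes that the study selected by machine learning, 14 were higher in samples 4 to 6 and 0 lower, and 14 were upregulated DEGs in the other samples. They were chosen on data that include these samples, so that this is not independent evidence of their direction. Birc5 (survivin), an inhibitor of apoptosis that acts in mitosis, read 3.86, 2.54 and 3.69 under ANG II and 1.05, 0.969 and 1.10 in the controls. Panx1, a channel protein, read 3.43, 4.54 and 5.59 under ANG II and 0.239, 0.516 and 0.298 in the controls. Tspo, a protein of the outer mitochondrial membrane, read 51.7, 47.5 and 59.0 under ANG II and 12.3, 17.6 and 14.4 in the controls. In each the groups lay clearly apart. Cep55, which acts in the last step of cell division, read 1.23, 0.566 and 1.38 under ANG II and 0.558, 0.492 and 0.481 in the controls, without overlap but with a log2 difference of 0.42, under the size of the threshold. Bub1b, a checkpoint kinase, read 3.003, 2.51 and 2.28 under ANG II and 0.805, 1.18 and 1.05 in the controls, and its fold change in the other samples was under the size of a DEG (0.46 ± 0.10, 8 of 9, limma, adjusted p = 0.0035). The median of the 15 was 1.24 in samples 4 to 6 and 1.52 in samples 7 to 9.

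**Figure D5:**
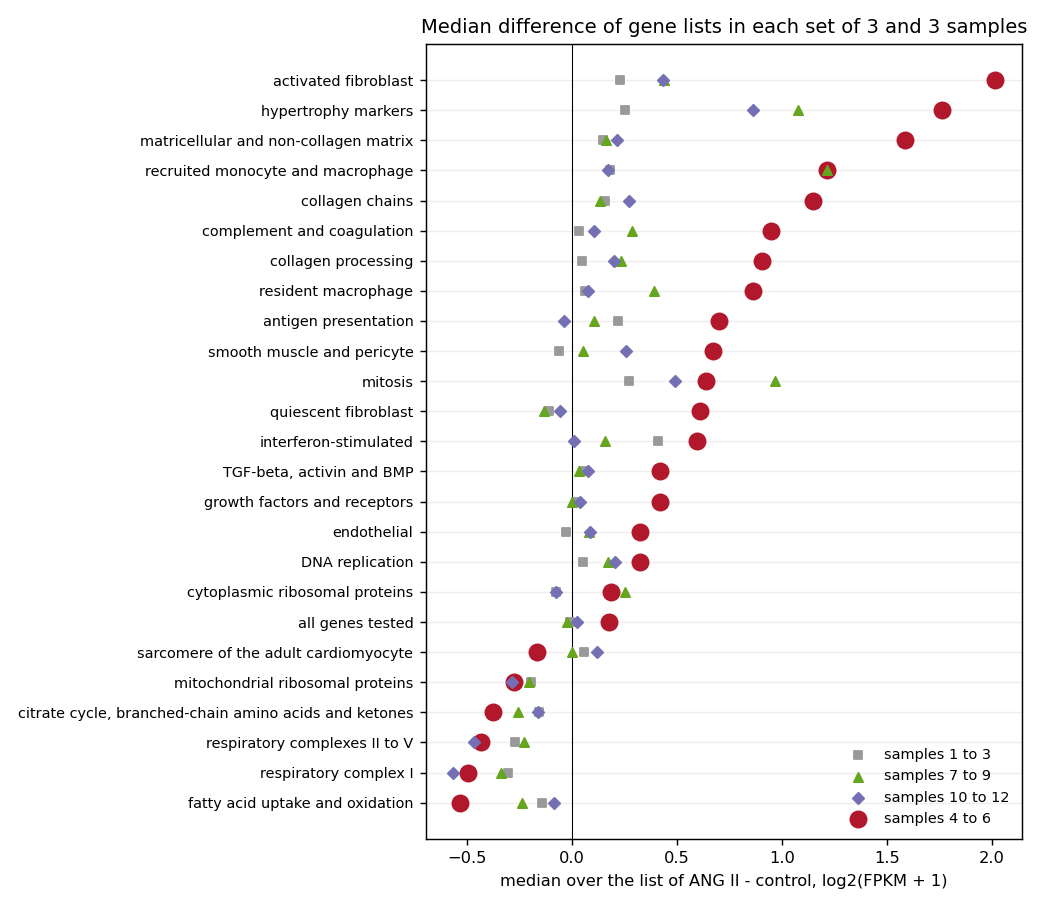
Median over each gene list of the difference between ANG II and control means on the log2(FPKM + 1) scale (horizontal axis), in each of the 4 sets of 3 and 3 samples, with all genes tested for comparison. The medians of samples 4 to 6 stand apart for the fibroblast and ECM lists (2.02 for activated fibroblasts), lie on those of samples 7 to 9 for recruited monocytes at 1.22, and are -0.50 and -0.44 for respiratory complexes I and II to V.

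The remaining lists held few genes past the threshold in some cases and many in others. Of all genes, 17.0% were higher and 3.03% lower in samples 4 to 6. Of 31 proteasome genes, 0 were higher and 0 lower. Of 78 cytoplasmic ribosomal protein genes, 3 were higher, and their median of 0.19 turned to -0.01 with median-ratio scaling. Chaperones of the endoplasmic reticulum were higher in 6 of 35, and in 3 without ANG II sample 6 as with either scaling. Heat shock genes were higher in 2 of 24. Of 47 genes of calcium cycling and excitation, 5 were higher and 8 lower, with Kcne1, a potassium channel subunit, at 11.2, 5.63 and 6.11 under ANG II and 0.996, 3.04 and 1.15 in the controls. The count of lower genes of this list was 4 without ANG II sample 6, 12 with quantile normalization and 11 with median-ratio scaling. Of 38 antioxidant and NADPH oxidase genes, 14 were higher and 4 lower, and 9 were higher with either scaling. Gpx3, a secreted glutathione peroxidase, was among the higher ones (441, 619 and 1078 against 103, 145 and 149 in the controls), and the 4 lower ones were Sod2, Prdx3, Prdx5 and Txn2, which act in mitochondria. Hba-a1, an α-globin of red blood cells, read 1562, 346 and 1174 under ANG II and 320.0, 365 and 103 in the controls, high in ANG II samples 4 and 6 and not in sample 5. Of 10 red blood cell genes 0 were past the threshold in samples 4 to 6, and 6 were upregulated DEGs in the others. Adipocyte genes were higher in 2 of 11, led by Cfd (adipsin) at 17.8, 6.12 and 52.9 under ANG II and -4.77, -5.01 and -6.99 in the controls. Of 17 Schwann cell and neuron genes 9 were higher, and of 13 epicardial and mesothelial genes 3.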

How the data were processed

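RNA-seq values of 12 hypertensive-LVH and 12 control left ventricles were taken from the table of the whole series, with groups and sample numbers from the labels. The submitters' processing notes name HISAT, Bowtie2 and RSEM, without versions. The genome build and the number of fragments per sample are not given in the sources used here, so that no counting error can be stated. The deposited values are scores rather than plain FPKM, since the authors' step had shifted and scaled the FPKM within 4 sets of samples, and it left values below 0. The design had assumed FPKM, and the same test was kept.

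Values below 0 were set to 0, genes with a mean of at least 0.1 over all 24 samples were kept (14025 of 14912), and values were analysed as log2(FPKM + 1), where the pseudocount of 1 understates the change of low genes. The 9 and 9 samples other than 4 to 6 were compared with limma 3.58.1 in R 4.3.3 with an intensity trend, as the study's methods name limma with the same limits for a DEG. P-values measure the spread between these samples after the authors' step, which had taken out the level of each set. As recovered, it kept a single group difference per gene over all samples, samples 4 to 6 included. By limma 2802 of 14025 genes had an adjusted p under 0.05 as deposited, and 1513 of 13622 before the adjustment. The latter fit, with the set as a term and a limit of 0.343 of a gene's mean, gave 322 upregulated and 330 downregulated DEGs.

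Differences before the adjustment were recovered from the spacing of the values, since FPKM had been given in steps of 0.01. Of 14912 genes, 14307 were solved, 49 showed no step and 556 no single solution. Of 400 genes made with known answers, 394 were recovered and 0 wrongly. Within the sets, pairs of samples of the same group shared 215 to 541 exactly tied genes, and between sets 0. Sums of a list are sums of its values. Promoters came from RefSeq windows matched by symbol. Tables were handled with Python 3.11.15, pandas 2.3.3 and numpy 2.4.6, and figures drawn with matplotlib 3.10.9.

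Named genes were the 10 largest increases and decreases in samples 4 to 6 without a negative value, up to 4 members of each of 53 lists with the largest differences and members against the direction of their list, the genes with an opposite DEG, the 15 genes of the study, and the 5 with the widest gap to the other samples in each direction. Other genes (markers, unadjusted genes, textbook members of a list) were named after their values were seen. The samples, the rule and the lists were chosen with earlier results of these data known. Alternatives were quantile normalization, scaling by median ratios, only genes without a negative value, no filter on low values or one at a mean of 1, a pseudocount of 0.1, values before the adjustment, each of the 6 samples left out, and for the other samples a replicate block, the set as a term, no intensity trend and each set left out.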

Additional observations from a re-analysis of the deposited data

Results flagged for a closer look

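Ppargc1a, the coactivator of mitochondrial biogenesis, had a single value far below the rest of its group in the other 9 controls. Control sample 3 read 9.95, and its gap to the next control was 0.694 of the range of the 9 values on the log2 scale, above the critical value of 0.493 for Dixon's test. In this way 38 named genes were looked at, in 76 groups of 9 values, and chance gives about 1 in 20. Genes named only as members of a list, or after their values were seen, were not among the 38. Control sample 3 belongs to samples 1 to 3, and without that set the fold change of Ppargc1a in the remaining samples was 0.40 (limma, adjusted p = 0.132), against 0.79 (8 of 9 ANG II samples above the control median, limma, adjusted p = 0.0171) with it. None of the 38 genes had samples 4 to 6 wholly apart in one direction and the other 9 and 9 samples wholly apart in the opposite one.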

How the results depend on the processing

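The excess of higher genes in samples 4 to 6 depended on how the samples were scaled. Median-ratio scaling gave 866 lower genes and quantile normalization 1151 higher and 936 lower, against 2386 higher and 425 lower as deposited; all 425 lower genes were kept with median ratios, and 1148 higher and 382 lower genes with quantile normalization. Leaving out 1 of the 6 samples gave 2127 to 2848 higher and 315 to 506 lower genes. Over all list medians of samples 4 to 6 and all alternatives, 554 were classed as the same, 134 as moved and 1 as reversed. The class of reversed medians did not hold all the changes of sign given next. The median of the adipocyte list turned to -0.037 over genes without a negative value. Under median ratios, quantile normalization or both, the medians of the adult sarcomere, DNA replication, renin-angiotensin, cytoplasmic ribosomal, proteasome, ubiquitin ligase and autophagy, circadian clock, cardiac transcription factor, skeletal muscle, and X and Y chromosome lists also changed sign. Leaving out a single control did so for immediate early genes (control sample 4) and skeletal muscle (control sample 5), and a pseudocount of 0.1 for skeletal muscle. In the other 9 and 9 samples there were 113 upregulated and 178 downregulated DEGs without samples 7 to 9 (322 and 230 with them), 212 and 192 without samples 10 to 12, and 426 and 289 without samples 1 to 3. A pseudocount of 0.1 gave 542 upregulated and 414 downregulated DEGs. The cause of these shifts was not tested. Fold changes that turned were those of Fam222a with a pseudocount of 0.1 (-0.023) and without samples 1 to 3 (-0.25), Timp4 without samples 1 to 3 (-0.15) and without samples 7 to 9 (-0.047), and Slc25a33 without samples 7 to 9 (0.34) and before the adjustment (0.088 of its mean), and none of the 3 genes was a DEG.

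Between ANG II and control samples of the same number, the 9 correlations of deviations from the group means were -0.50 to 0.09. With their own number 0 of 9 samples correlated best. The authors' step had taken out the level that samples of a set share, so these values cannot show whether the numbers paired the groups. With the number as a replicate block there were 266 upregulated and 218 downregulated DEGs. Without control sample 2, an alternative chosen after seeing the data, there were 375 and 276. Alternatives were run for the 38 named genes that were not named only as list members or after their values were seen. Over these genes and all alternatives in the other samples, a call was lost 47 times and gained 4 times, and a sign turned in the 6 cases above.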
